A study of Homo sapiens with 12 samples.

Results

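The genes described here are 45 genes of mitosis, from the kinases that start it to the proteins that part the daughter cells, with the spindle checkpoint among them. Their transcripts were read in Tet21N cells on 12 bead arrays made by Illumina. Tet21N is a clone of the human neuroblastoma line SH-EP that carries an N-Myc transgene, which is shut off by doxycycline. A member was read where a probe annotated to it had a detection score above 0.95 on 3 or more of the 12 arrays, and its brightest such probe stood for the gene. All 45 met this rule, among 12178 genes that did. Every cell culture was transfected with an siRNA, either one against MLXIP, the gene of the nutrient-sensing transcription factor MondoA (siMondoA), or a non-specific one (siControl). Without doxycycline the groups are called Myc on, and with 1 microgram/ml of it for 3 days they are called Myc off, which gave 4 groups of 3 arrays. The Myc-off cells all had doxycycline, and an effect of the drug and one of the Myc state cannot be told apart. Whether the 3 arrays of a group came from separate cultures is not labelled, so the p-values cover no more than the spread among these arrays, part or all of which may be technical.

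Mitosis begins when cyclin B and cyclin A bind CDK1 and phosphatases of the CDC25 family remove its inhibitory phosphates. Microtubules then build a spindle, kinetochores attach each chromosome to it, and the spindle checkpoint holds the anaphase-promoting complex (APC/C) inactive until every kinetochore is attached. Once CDC20 activates the APC/C, securin and cyclin B are destroyed, separase cuts cohesin, and cytokinesis follows. Transcripts of many of these genes rise together late in the cell cycle, and the transcription factors B-MYB and FOXM1 act on a shared promoter element, the cell cycle genes homology region (CHR), often with CCAAT boxes nearby. In neuroblastoma, N-Myc is known to drive cells through the cycle, and high levels of mitotic genes go with aggressive tumours. In RNA from a whole culture, a smaller share of cells in mitosis and less RNA per mitotic cell cannot be told apart.

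Between 18521 and 20726 probes per array were detected, and the median signal per array was 116.8 to 143.2. For MLXIP, the knockdown target, 1 array of 12 detected its probe, and for MYCN 0 did for either probe, so neither gene's level could check the labels. Across genes, r was 0.986 to 0.992 between arrays within a group and 0.945 to 0.973 between groups. All 9 mesenchymal neuroblastoma markers examined were measured, with FN1 detected on 7 arrays. Of 14 adrenergic markers with a probe 6 were measured. Among these, GATA2, HAND2 and ISL1 were detected on 12 arrays, GATA3 on 11, CHGB on 9 and GAP43 on 8. The noradrenaline synthesis genes TH, DBH and DDC were detected on 0 arrays. Of the blood markers CD14 and CD68 were measured and PTPRC and CD3E were detected on 0 arrays. Of 5 endothelial markers PECAM1 was measured, detected on 4 arrays, and 3 were detected on 0 arrays. Of 5 epithelial markers EPCAM was measured, its best probe detected on 5 arrays, and 3 were detected on 0 arrays. Of the 45 members 43 were detected on every array. The exceptions were the kinesin gene KIF15, detected on 2 of the 3 siMondoA Myc-off arrays, and the proliferation marker MKI67, detected on 1 of those 3. Levels below are log2 values after background correction and quantile normalization, and a level of 1 probe is not set against that of another.

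Promoters of 38 members were found in the RefSeq table (GRCh38.p14), as windows from 250 bases before to 50 bases after a start. For a gene with several listed starts, a motif was counted if any window held it. The windows of 5 members are shown because they hold the range seen among the genes whose levels are described below. CCNB2 holds several CCAAT boxes, the CHR form TTTGAA close to the start and the form TTTAAA further from it. KIF20A holds TTTAAA but not TTTGAA. CDC25C fell furthest with siMondoA when Myc was off, and PLK1 rose furthest with it when Myc was on. SPC24 holds CCAAT boxes but neither TTTGAA nor TTTAAA. Each is printed 5′ to 3′ on the strand of its gene. Capitals mark the CHR forms TTTGAA and TTTAAA and the CCAAT box, on either strand, so that TTCAAA and ATTGG are matches on the opposite strand. Other forms of the CHR were not searched, and CHR form below means TTTGAA or TTTAAA only. CCNB2 lies at chr15:59104896-59105195 on the plus strand, KIF20A at chr5:138178862-138179161 on the plus strand, CDC25C at chr5:138331755-138332054 on the minus strand, PLK1 at chr16:23678639-23678938 on the plus strand and SPC24 at chr19:11155733-11156032 on the minus strand. The CDC25C window is that of 1 of its listed starts.
CCNB2: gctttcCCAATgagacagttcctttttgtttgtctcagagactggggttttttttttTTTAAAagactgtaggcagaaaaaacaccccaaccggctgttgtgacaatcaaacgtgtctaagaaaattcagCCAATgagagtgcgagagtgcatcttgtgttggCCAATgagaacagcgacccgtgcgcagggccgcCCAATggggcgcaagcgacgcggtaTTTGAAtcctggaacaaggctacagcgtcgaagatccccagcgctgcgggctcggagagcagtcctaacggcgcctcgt
KIF20A: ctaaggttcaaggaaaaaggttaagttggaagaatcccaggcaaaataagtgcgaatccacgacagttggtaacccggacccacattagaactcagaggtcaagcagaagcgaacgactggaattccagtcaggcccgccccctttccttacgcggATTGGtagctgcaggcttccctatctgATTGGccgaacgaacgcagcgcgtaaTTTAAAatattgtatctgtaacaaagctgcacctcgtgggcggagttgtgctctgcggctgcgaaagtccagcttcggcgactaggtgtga
CDC25C: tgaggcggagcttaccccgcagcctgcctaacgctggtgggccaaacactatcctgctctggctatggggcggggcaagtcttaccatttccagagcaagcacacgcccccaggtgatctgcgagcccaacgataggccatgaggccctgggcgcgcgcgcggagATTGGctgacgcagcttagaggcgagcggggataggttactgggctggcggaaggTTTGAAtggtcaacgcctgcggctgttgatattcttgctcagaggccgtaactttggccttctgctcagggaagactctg
PLK1: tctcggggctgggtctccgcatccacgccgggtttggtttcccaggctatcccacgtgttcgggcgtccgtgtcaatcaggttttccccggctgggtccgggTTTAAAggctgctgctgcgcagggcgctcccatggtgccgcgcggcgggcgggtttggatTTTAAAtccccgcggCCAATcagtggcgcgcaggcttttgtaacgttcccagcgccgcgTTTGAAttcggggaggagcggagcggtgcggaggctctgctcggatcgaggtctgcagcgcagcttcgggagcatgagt
SPC24: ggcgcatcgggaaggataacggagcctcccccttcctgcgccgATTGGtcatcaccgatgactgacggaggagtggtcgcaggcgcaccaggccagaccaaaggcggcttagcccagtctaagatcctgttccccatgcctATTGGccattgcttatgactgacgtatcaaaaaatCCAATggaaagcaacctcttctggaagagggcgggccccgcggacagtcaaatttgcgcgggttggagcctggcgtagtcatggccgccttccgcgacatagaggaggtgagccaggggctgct

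A CHR form was present in 33 of the 38 member promoters (86.8%), against 22.2% of 9742 tested genes with a promoter and 27.9% of all 27305 genes of the table. TTTGAA alone was in 28 (73.7%, against 14.4% of tested genes and 18.2% of the table) and TTTAAA in 13 (34.2%, against 11.2% and 14.5%). A CCAAT box was present in 31 (81.6%, against 44.1% and 39.7%), and 2 or more in 21 (55.3%, against 16.6% and 12.9%). A CHR form together with CCAAT was found in 26 (68.4%, against 9.49% and 11.2%). The E-box CACGTG, a sequence that Myc and MondoA complexes are known to bind, was in 5 (13.2%, against 12.7% and 8.77%), PLK1 among them. Relative to the start, the first base of CHR matches had a median position of -32.5 and that of CCAAT matches one of -78.5. These medians take every match in every window. For the 5 members with several listed starts, a site in overlapping windows counts more than once, at different positions. The members whose windows held neither TTTGAA nor TTTAAA were AURKB, BUB1, CCNA2, NEK2 and SPC24, which does not show that they lack a CHR. Among promoters of other mitosis genes a CHR form was in 49 of 98, and among those of DNA replication genes in 6 of 42. These matches describe the letters of the windows and say nothing of binding in these cells.

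Across the 12 arrays the mitosis genes had their lowest mean in siMondoA Myc-off cells for 43 of the 45. For 34 of them all 3 siMondoA Myc-off arrays lay below the other 9 arrays, an arrangement found for 9.16% of all genes. The highest mean was in siControl Myc-on cells for 30 members, in siMondoA Myc-on cells for 14 and in another group for 1. How often all genes had their lowest or highest mean in each group was not counted. With each gene set against its own mean over the 12 arrays, the median member was 0.35 to 0.41 above on the siControl Myc-on arrays and 0.23 to 0.35 above on the siMondoA Myc-on arrays. It was -0.01 to 0.06 on the siControl Myc-off arrays and -0.74 to -0.65 on the siMondoA Myc-off arrays. The median of all genes, taken the same way, stayed between -0.02 and 0.02 on every array. Quantile normalization gives every array the same distribution of probe levels, which largely fixes this median in advance. The medians of all genes set beside the members below share this, and under median scaling they ran from -0.11 to 0.27.

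**Figure D1:**
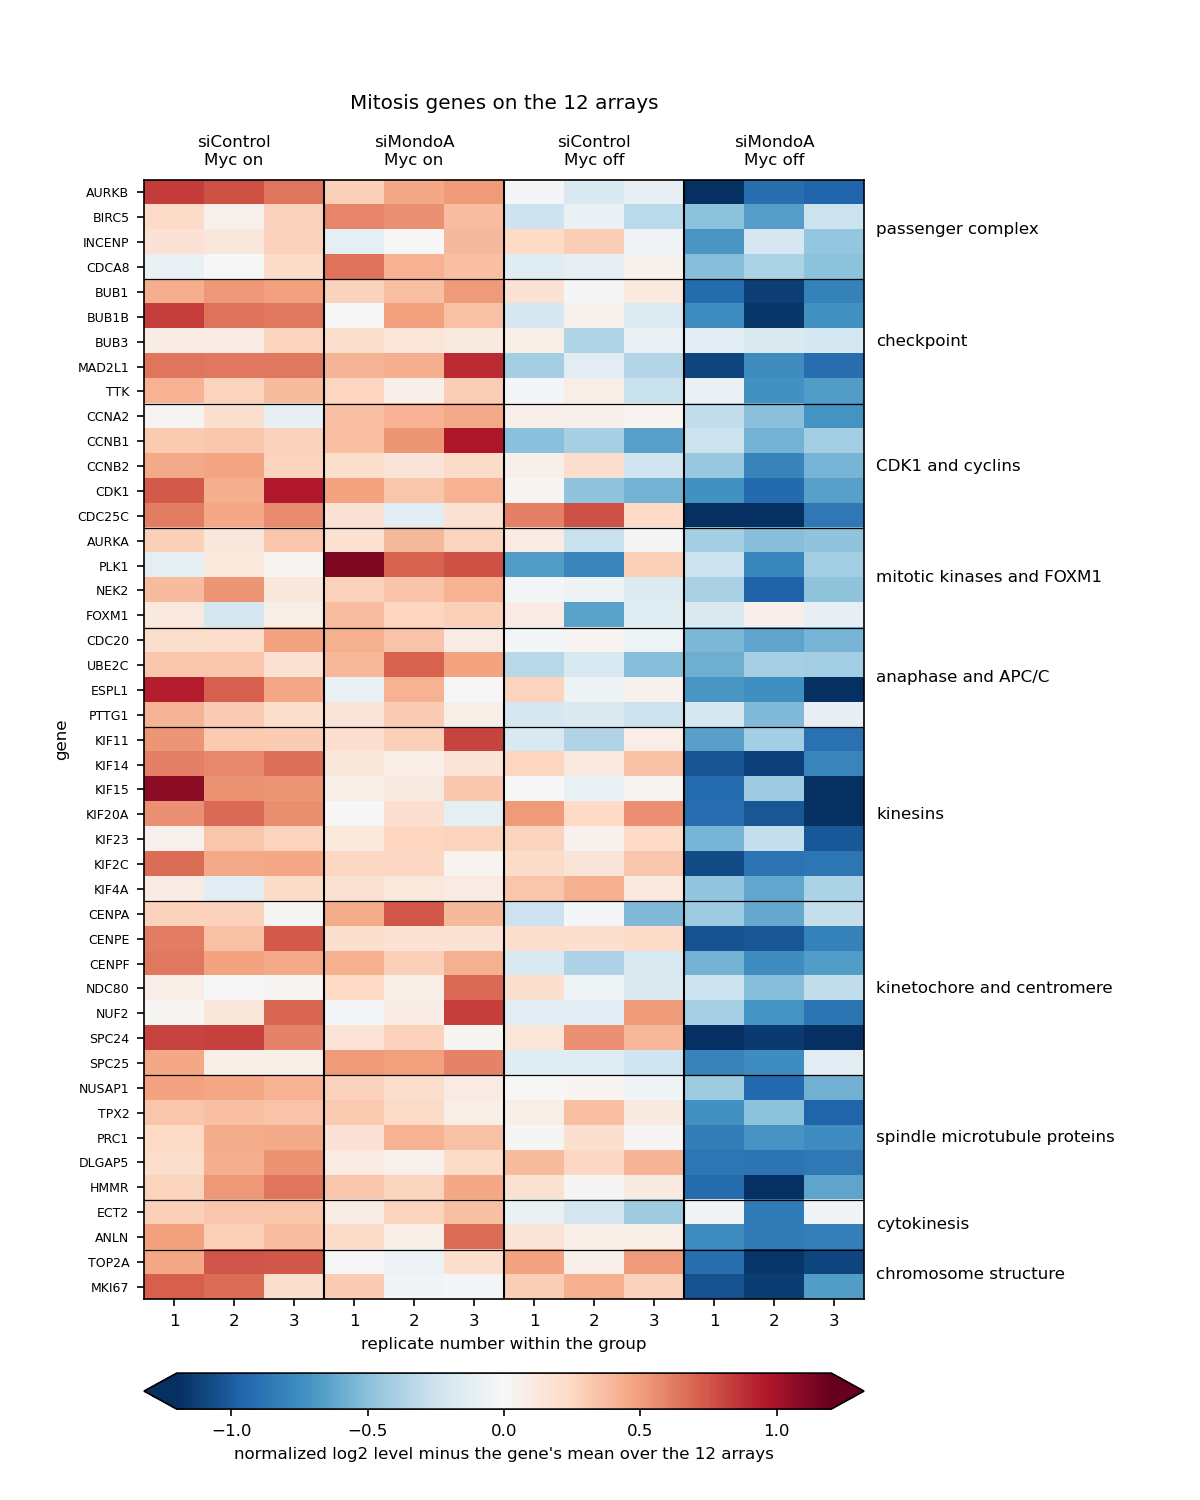
Heat map of the 45 mitosis genes (rows, grouped by role) on the 12 arrays (columns, 3 per group), coloured by the normalized log2 level minus the gene's mean over the 12 arrays, with colours ending at the values marked on the bar. The siMondoA Myc-off arrays are lowest for most rows, with array medians of -0.74 to -0.65, and both Myc-on groups are above the mean.

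With Myc off, siMondoA lowered 33 of the 45 genes, raised 0 and left 12 not passing (limma, adjusted p below 0.05 over 12178 genes), where 22.0% of all genes were called lower and 21.8% higher. The member changes ranged from -1.70 to 0.16 on the log2 scale with a median of -0.62, against a median of 0.03 for all genes. The 3 arrays of each group did not overlap, with siMondoA lower, for 34 members (25.7% of all genes), and 0 members were apart with siMondoA higher (26.6%). All 7 kinesins, all 5 spindle microtubule proteins and both chromosome structure genes fell. The 12 that did not pass included the cyclin B gene CCNB1, its kinase CDK1, the securin gene PTTG1 and the kinase gene PLK1.

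With Myc on, 3 members rose with siMondoA (12.4% of all genes were called higher), 7 fell (12.5% called lower) and 35 did not pass. The median change was -0.10, against 0.03 for all genes. PLK1, CDCA8 and CCNA2 rose, and TOP2A, ESPL1, SPC24, KIF20A, KIF14, CENPE and KIF2C fell. All 7 that fell with Myc on also fell with Myc off, where 33 of all 45 did (22.0% of all genes). CDCA8 and CCNA2 were called in opposite directions in the Myc states. How many of all genes were called lower in both Myc states, or in opposite directions, was not counted. The arrays of the groups did not overlap for 9 members with siMondoA higher (21.1% of all genes) and for 15 with siMondoA lower (19.3%). None of the 10 calls held under every alternative. With median scaling in place of quantile normalization 8 members were higher and 0 lower, with a median of 0.15, while the median of all genes was 0.19 and the share of higher genes among all calls was 79.1%, against 49.7%. Without siControl Myc-on replicate 1 or without siMondoA Myc-on replicate 1, 0 were higher and 5 lower, without siMondoA Myc-on replicate 3, 2 were higher and 4 lower, and without siControl Myc-on replicate 3, 1 was higher and 6 lower.

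**Figure D2:**
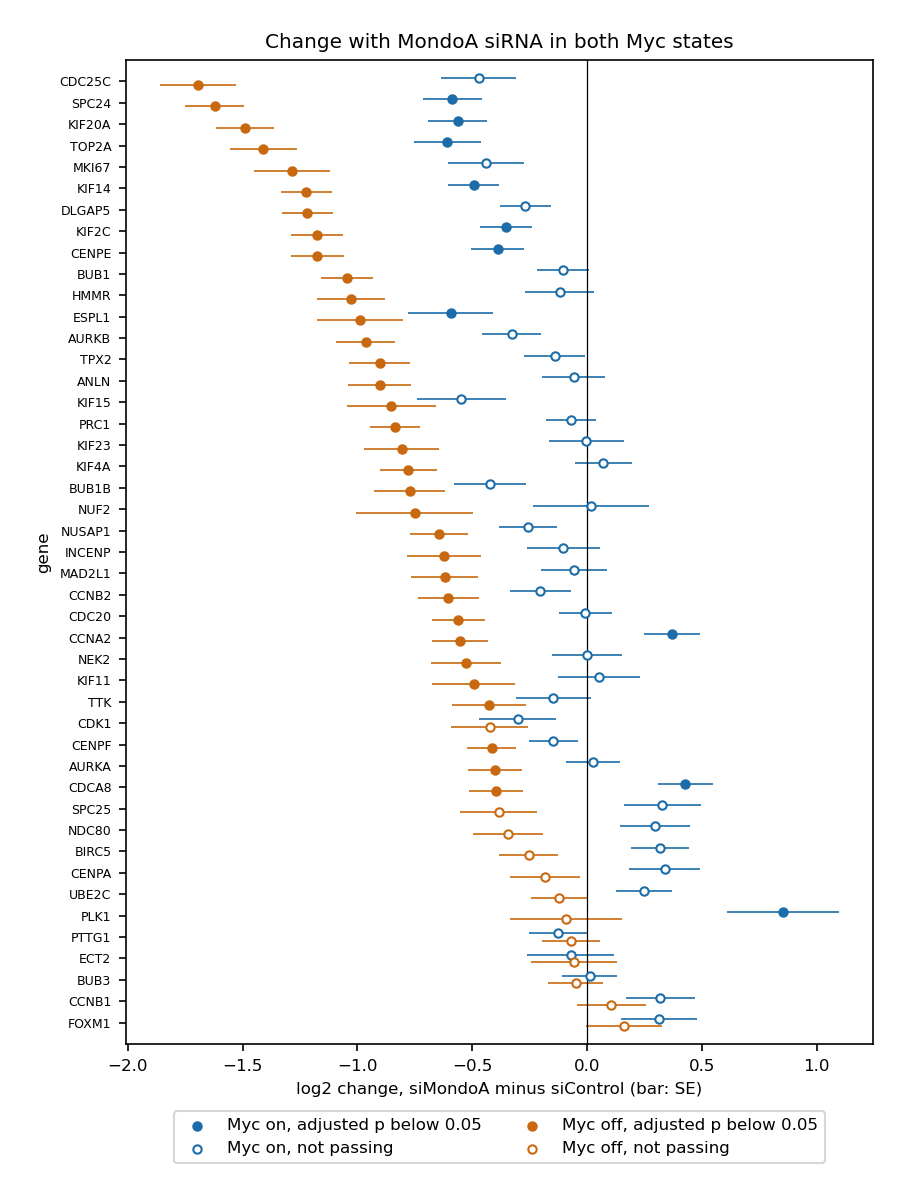
Log2 change with MondoA siRNA for each of the 45 genes with Myc on (blue) and with Myc off (orange), with bars of 1 standard error (3 arrays per group) and filled points for an adjusted p below 0.05. With Myc off 33 genes lie below zero and pass, and with Myc on 7 pass below zero and 3 above.

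The difference between the knockdown changes was tested as an interaction, the change with Myc on minus the change with Myc off. It passed for 19 of the 45 members, all with a positive sign (5.15% of all genes passed with that sign and 3.55% with the opposite one), and 26 did not pass. The median was 0.64, against 0.00 for all genes. This contrast is by its arithmetic also the Myc difference in siMondoA cells minus that in siControl cells. The comparisons of siRNAs and those of Myc states draw on the same 4 groups of arrays, so low levels in siMondoA Myc-off cells enter the fall with siMondoA, the Myc difference in siMondoA cells and the interaction alike. The kinesins held 5 of the calls and the spindle microtubule proteins 4. Under median scaling 29 members passed, with all genes at a median of 0.27, and 11 of the 19 passed under every alternative.

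In siControl cells, 22 members were higher with Myc on than with Myc off (14.6% of all genes were called higher), 0 were lower (16.3%) and 23 did not pass. The median change was 0.37, against -0.01 for all genes, and the groups did not overlap, with Myc on higher, for 30 members (21.5%). Median scaling left 8 members called and put the median of all genes at -0.11, and higher genes made up 25.6% of all calls in place of 47.2%. Leaving out siControl Myc-on replicate 1, siControl Myc-on replicate 2 or siControl Myc-off replicate 3 left 12, 13 and 14 members called. The 8 members that passed under every alternative were AURKB, BUB1B, CCNB1, CDK1, CENPF, MAD2L1, PTTG1 and UBE2C.

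In siMondoA cells, 43 members were higher with Myc on (14.9% of all genes), 0 were lower (15.1%) and 2, BUB3 and FOXM1, did not pass. The changes ranged from 0.33 to 1.50 with a median of 1.02, against -0.02 for all genes. The groups did not overlap, with Myc on higher, for all 45 members (20.5%). Under median scaling all 45 passed, the median of all genes was 0.13, and higher genes made up 76.2% of all calls in place of 49.7%.

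**Figure D3:**
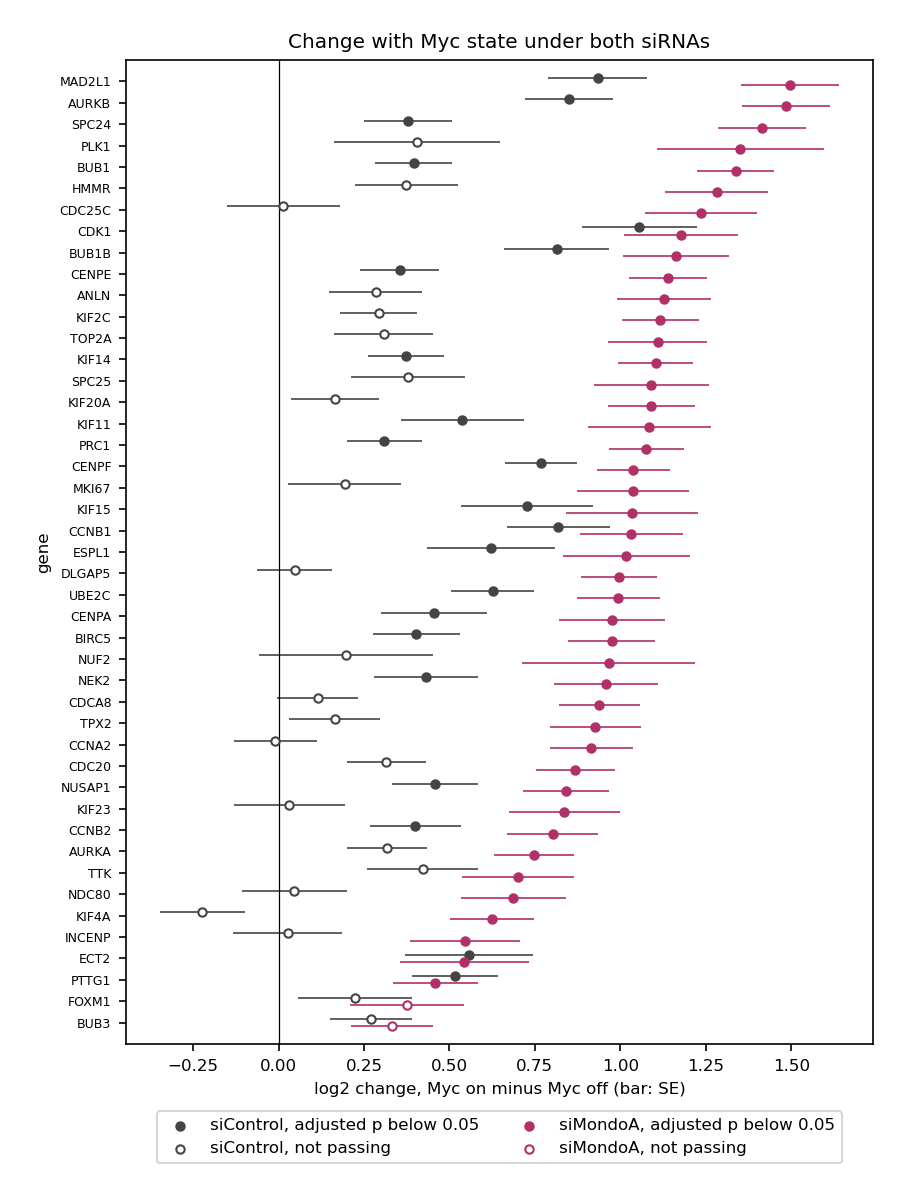
Log2 change with Myc state, Myc on minus Myc off, for each of the 45 genes in siControl cells (dark grey) and in siMondoA cells (pink), with bars of 1 standard error (3 arrays per group) and filled points for an adjusted p below 0.05. In siMondoA cells 43 genes pass and all lie above zero, and in siControl cells 22 pass.

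The genes of mitotic entry code for the kinase CDK1, its cyclins and the phosphatase that activates it. Of these 5 genes, 1 rose and 0 fell with siMondoA when Myc was on (12.4% of all genes rose and 12.5% fell). When Myc was off 0 rose and 3 fell (21.8% of all genes rose and 22.0% fell). With Myc on against Myc off, 3 were higher with siControl (14.6% of all genes) and 5 with siMondoA (14.9%). Here and below a value with its standard error and an adjusted p is a difference between group means on the log2 scale, and values on single arrays are levels. CDC25C, the phosphatase that activates CDK1, was at 7.81, 7.66 and 7.76 in siControl and 7.36, 7.06 and 7.38 in siMondoA cells with Myc on, and at 7.79, 7.96 and 7.43 in siControl and 5.80, 5.96 and 6.33 in siMondoA cells with Myc off. Its siMondoA Myc-off arrays lay below every other array, and the siControl groups overlapped. It fell 3.24-fold with siMondoA when Myc was off (on the log2 scale -1.70 ± 0.17 SE, n = 3 per group, adjusted p = 6.13e-06) and was at -0.47 ± 0.17 (adjusted p = 0.053) when Myc was on, and the difference between these changes was 1.22 ± 0.23 (adjusted p = 0.0078). Over the alternatives this fall ran from -1.87 to -0.89 and the difference from 0.59 to 1.59, and both calls held in each. The other CDC25C probe gave -1.56 ± 0.23 (adjusted p = 0.000171) with Myc off and -0.38 ± 0.23 (adjusted p = 0.27) with Myc on. Values of second or other probes, here and below, come from the same model fitted over 16385 named probes, with adjustment over those probes. CDK1 was at 10.13, 9.83 and 10.35 in siControl and 9.87, 9.72 and 9.81 in siMondoA cells with Myc on, and at 9.40, 8.91 and 8.82 in siControl and 8.67, 8.46 and 8.74 in siMondoA cells with Myc off. Its Myc-on arrays all lay above the Myc-off arrays, 2.08-fold in siControl cells (1.06 ± 0.17, adjusted p = 0.000528) and 2.26-fold in siMondoA cells (1.18 ± 0.17, adjusted p = 0.000258). The knockdown change did not pass in either state (-0.30 ± 0.17, adjusted p = 0.214 with Myc on and -0.42 ± 0.17, adjusted p = 0.0559 with Myc off), although a second CDK1 probe passed with Myc off (-0.53 ± 0.13, adjusted p = 0.00615). CCNA2, the cyclin of S phase and early mitosis, was at 9.80, 9.96 and 9.66 in siControl and 10.13, 10.18 and 10.22 in siMondoA cells with Myc on, and at 9.83, 9.83 and 9.79 in siControl and 9.47, 9.27 and 9.04 in siMondoA cells with Myc off. Here siMondoA Myc-on arrays were the highest and siMondoA Myc-off arrays the lowest, while the siControl groups overlapped. The cyclin rose 1.29-fold with siMondoA when Myc was on (0.37 ± 0.12, adjusted p = 0.0425), fell 1.47-fold when Myc was off (-0.55 ± 0.12, adjusted p = 0.00259), and these changes differed by 0.92 ± 0.17 (adjusted p = 0.00692). The call for the rise was lost in 11 of 21 alternatives. For CCNB1, the main mitotic cyclin, levels were 8.80, 8.81 and 8.76 in siControl and 8.85, 9.02 and 9.46 in siMondoA cells with Myc on, and at 7.99, 8.09 and 7.84 in siControl and 8.23, 7.92 and 8.08 in siMondoA cells with Myc off. Its Myc-on and Myc-off arrays did not overlap, and the siMondoA groups did not lie below the siControl groups. It was 1.76-fold higher with Myc on in siControl cells (0.82 ± 0.15, adjusted p = 0.00136) and 2.05-fold in siMondoA cells (1.03 ± 0.15, adjusted p = 0.000306), with knockdown changes of 0.32 ± 0.15 (adjusted p = 0.143) and 0.10 ± 0.15 (adjusted p = 0.607). CCNB2, the other B-type cyclin, had means of 10.78 ± 0.12 in siControl and 10.58 ± 0.03 in siMondoA cells with Myc on, against 10.38 ± 0.22 and 9.78 ± 0.18 with Myc off (SD, n = 3), and fell with siMondoA when Myc was off (-0.61 ± 0.13, adjusted p = 0.00262) but not past the threshold when Myc was on (-0.20 ± 0.13, adjusted p = 0.298).

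The mitotic kinases PLK1, AURKA and NEK2 were read with FOXM1, a transcription factor of late cell cycle genes. PLK1, which acts in mitotic entry, spindle assembly and cytokinesis, was at 5.99, 6.23 and 6.13 in siControl and 7.23, 6.82 and 6.87 in siMondoA cells with Myc on, and at 5.43, 5.31 and 6.40 in siControl and 5.85, 5.32 and 5.68 in siMondoA cells with Myc off. All 3 siMondoA Myc-on arrays lay above the other 9, and siControl Myc-off replicate 3 lay about 1 log2 unit above the others of its group. PLK1 rose 1.81-fold with siMondoA when Myc was on (0.85 ± 0.24 SE, n = 3 per group, adjusted p = 0.0226) and was at -0.09 ± 0.24 (adjusted p = 0.788) when Myc was off, and the difference did not pass (0.95 ± 0.34, adjusted p = 0.112). The call for the rise was lost without siControl Myc-on replicate 1 or 3, and without siMondoA Myc-on replicate 1. In siMondoA cells PLK1 was 2.55-fold higher with Myc on (1.35 ± 0.24, adjusted p = 0.00133), against 0.41 ± 0.24 (adjusted p = 0.241) in siControl cells. AURKA, the Aurora kinase of centrosomes and spindle poles, was at 10.66, 10.51 and 10.70 in siControl and 10.55, 10.76 and 10.64 in siMondoA cells with Myc on, and at 10.47, 10.10 and 10.35 in siControl and 9.96, 9.86 and 9.89 in siMondoA cells with Myc off. The siMondoA Myc-off arrays were the lowest, and the Myc-on groups overlapped. It fell 1.32-fold with siMondoA when Myc was off (-0.40 ± 0.12, adjusted p = 0.0138), a call lost under median scaling and without siControl Myc-off replicate 1, and was at 0.03 ± 0.12 (adjusted p = 0.897) when Myc was on. In the fit over all 16385 named probes, a second AURKA probe passed for the difference between the Myc states (0.70 ± 0.15, adjusted p = 0.0156) where the brighter one did not (0.43 ± 0.17, adjusted p = 0.152). NEK2, a kinase of centrosome separation, was at 9.40, 9.56 and 9.16 in siControl and 9.30, 9.37 and 9.45 in siMondoA cells with Myc on, and at 9.01, 8.97 and 8.86 in siControl and 8.64, 8.06 and 8.55 in siMondoA cells with Myc off. Its Myc-on arrays lay above all Myc-off arrays, and siMondoA Myc-off arrays below siControl Myc-off arrays. With siMondoA it fell 1.44-fold when Myc was off (-0.53 ± 0.15, adjusted p = 0.0129) and was at 0.00 ± 0.15 (adjusted p = 0.996) when Myc was on. FOXM1 was at 8.17, 7.84 and 8.12 in siControl and 8.42, 8.31 and 8.34 in siMondoA cells with Myc on, and at 8.14, 7.41 and 7.91 in siControl and 7.88, 8.11 and 7.95 in siMondoA cells with Myc off. Its siMondoA Myc-on arrays lay above the other 9, and the Myc-off groups overlapped. FOXM1 passed in no comparison, with 0.31 ± 0.17 (adjusted p = 0.196) for siMondoA when Myc was on, 0.16 ± 0.17 (adjusted p = 0.471) when Myc was off and 0.38 ± 0.17 (adjusted p = 0.107) for the Myc state in siMondoA cells. A second FOXM1 probe passed for the last of these (0.57 ± 0.17, adjusted p = 0.0228).

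The chromosomal passenger complex, which corrects faulty spindle attachments and then directs cytokinesis, consists of the kinase AURKB, the scaffold INCENP, survivin (BIRC5) and borealin (CDCA8). With siMondoA 3 of the 4 fell when Myc was off (22.0% of all genes fell), and 1 rose when Myc was on (12.4% rose). AURKB was at 10.25, 10.17 and 10.05 in siControl and 9.69, 9.87 and 9.92 in siMondoA cells with Myc on, and at 9.39, 9.23 and 9.31 in siControl and 8.07, 8.50 and 8.45 in siMondoA cells with Myc off. These groups did not overlap and stood in the order given. AURKB fell 1.95-fold with siMondoA when Myc was off (-0.96 ± 0.13 SE, n = 3 per group, adjusted p = 7.63e-05) and was at -0.33 ± 0.13 (adjusted p = 0.0838) when Myc was on, a difference of 0.64 ± 0.18 (adjusted p = 0.0497) that was lost in 14 of 20 alternatives. It was 1.8-fold higher with Myc on in siControl cells (0.85 ± 0.13, adjusted p = 4e-04) and 2.8-fold in siMondoA cells (1.49 ± 0.13, adjusted p = 1.14e-05). CDCA8 was at 9.04, 9.12 and 9.34 in siControl and 9.77, 9.53 and 9.48 in siMondoA cells with Myc on, and at 8.97, 9.02 and 9.16 in siControl and 8.60, 8.73 and 8.63 in siMondoA cells with Myc off. As for CCNA2, siMondoA arrays were the highest with Myc on and the lowest with Myc off. Borealin transcript rose 1.35-fold with siMondoA when Myc was on (0.43 ± 0.12, adjusted p = 0.0188), fell 1.32-fold when Myc was off (-0.40 ± 0.12, adjusted p = 0.0157), and these changes differed by 0.82 ± 0.17 (adjusted p = 0.0106). The call for the rise was lost in 4 of 21 alternatives and that for the fall in 2 of 21. INCENP was at 7.05, 7.01 and 7.16 in siControl and 6.76, 6.88 and 7.27 in siMondoA cells with Myc on, and at 7.11, 7.17 and 6.85 in siControl and 6.18, 6.68 and 6.41 in siMondoA cells with Myc off. Only its siMondoA Myc-off arrays stood apart, below the other 9, and it fell 1.54-fold there (-0.62 ± 0.16, adjusted p = 0.00683). A second INCENP probe, detected on 3 arrays, was at -0.42 ± 0.17 (adjusted p = 0.0594). BIRC5 was at 9.56, 9.38 and 9.61 in siControl and 9.92, 9.88 and 9.70 in siMondoA cells with Myc on, and at 9.08, 9.26 and 9.01 in siControl and 8.84, 8.67 and 9.07 in siMondoA cells with Myc off. The Myc-off groups overlapped, and the siMondoA Myc-on arrays were the highest. Its brighter probe did not pass for the knockdown (0.32 ± 0.13, adjusted p = 0.0908 with Myc on and -0.25 ± 0.13, adjusted p = 0.128 with Myc off). The second BIRC5 probe, also detected on all 12 arrays, rose with siMondoA when Myc was on (0.93 ± 0.13, adjusted p = 0.000403) and passed for the difference between the Myc states (1.14 ± 0.19, adjusted p = 0.0036).

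The spindle checkpoint genes code for proteins that gather at unattached kinetochores and hold back CDC20. Of 5, 4 fell with siMondoA when Myc was off (22.0% of all genes fell). When Myc was on 0 passed (12.4% of all genes rose and 12.5% fell). BUB1, a checkpoint kinase of the kinetochore, was at 9.00, 9.08 and 9.05 in siControl and 8.83, 8.92 and 9.06 in siMondoA cells with Myc on, and at 8.73, 8.54 and 8.67 in siControl and 7.63, 7.42 and 7.74 in siMondoA cells with Myc off. All 3 siMondoA Myc-off arrays lay below the other 9 by most of a log2 unit, and the Myc-on groups overlapped. It fell 2.07-fold with siMondoA when Myc was off (-1.05 ± 0.11 SE, n = 3 per group, adjusted p = 1.43e-05) against -0.11 ± 0.11 (adjusted p = 0.546) when Myc was on, a difference of 0.94 ± 0.16 (adjusted p = 0.00405). MAD2L1, which encodes the CDC20-binding protein MAD2, was at 10.06, 10.05 and 10.05 in siControl and 9.83, 9.85 and 10.31 in siMondoA cells with Myc on, and at 9.01, 9.29 and 9.07 in siControl and 8.32, 8.68 and 8.51 in siMondoA cells with Myc off. Every Myc-on array lay above every Myc-off array, by 1.91-fold on average in siControl cells (0.93 ± 0.14, adjusted p = 0.000451) and 2.82-fold in siMondoA cells (1.50 ± 0.14, adjusted p = 2.32e-05). With siMondoA, MAD2L1 fell 1.54-fold when Myc was off (-0.62 ± 0.14, adjusted p = 0.00376), while its second probe was at -0.39 ± 0.24 (adjusted p = 0.22). BUB1B, which encodes BUBR1 of the checkpoint complex, had means of 7.56 ± 0.11 in siControl and 7.13 ± 0.26 in siMondoA cells with Myc on, against 6.74 ± 0.14 and 5.97 ± 0.25 with Myc off (SD, n = 3) and fell with siMondoA when Myc was off (-0.77 ± 0.15, adjusted p = 0.00145). TTK, the kinase that starts checkpoint signalling, had means of 8.63 ± 0.07 in siControl and 8.48 ± 0.13 in siMondoA cells with Myc on, against 8.21 ± 0.18 and 7.78 ± 0.36 with Myc off and fell as well (-0.43 ± 0.16, adjusted p = 0.0496). The TTK call, at an adjusted p just under the threshold, was lost in 14 of 21 alternatives. BUB3, which brings BUB1 and BUBR1 to kinetochores, was at 11.76, 11.76 and 11.94 in siControl and 11.89, 11.82 and 11.78 in siMondoA cells with Myc on, and at 11.75, 11.31 and 11.59 in siControl and 11.54, 11.50 and 11.46 in siMondoA cells with Myc off. The siMondoA Myc-off arrays lay within the range of the siControl Myc-off arrays. Its brightest probe passed in no comparison, the nearest being Myc on against off in siMondoA cells (0.33 ± 0.12, adjusted p = 0.053), where 2 of its 3 other detected probes passed (0.70 ± 0.14, adjusted p = 0.00338 and 0.75 ± 0.15, adjusted p = 0.00314).

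The kinetochore genes include the 4 subunits of the NDC80 complex, the main microtubule anchor of the kinetochore (NDC80, NUF2, SPC24 and SPC25), and the centromere genes CENPA, CENPE and CENPF. With siMondoA 4 of these 7 fell when Myc was off (22.0% of all genes fell) and 2 when Myc was on (12.5% fell). SPC24 was at 9.95, 9.96 and 9.74 in siControl and 9.31, 9.42 and 9.16 in siMondoA cells with Myc on, and at 9.28, 9.69 and 9.54 in siControl and 7.88, 7.99 and 7.77 in siMondoA cells with Myc off. Those of the siMondoA Myc-off group lay more than 1 log2 unit below all others, and siMondoA arrays also lay below siControl arrays when Myc was on. SPC24 fell 3.08-fold with siMondoA when Myc was off (-1.62 ± 0.13 SE, n = 3 per group, adjusted p = 1.41e-06) and 1.5-fold when Myc was on (-0.59 ± 0.13, adjusted p = 0.00567), and these falls differed by 1.03 ± 0.18 (adjusted p = 0.00518). Its partner SPC25 was at 8.21, 7.82 and 7.81 in siControl and 8.26, 8.23 and 8.34 in siMondoA cells with Myc on, and at 7.60, 7.60 and 7.50 in siControl and 6.94, 7.00 and 7.61 in siMondoA cells with Myc off. The siMondoA Myc-on arrays were the highest, and siMondoA Myc-off replicate 3 was level with the siControl Myc-off arrays. SPC25 did not pass for the knockdown (0.33 ± 0.17, adjusted p = 0.178 with Myc on and -0.38 ± 0.17, adjusted p = 0.0817 with Myc off) but was 2.13-fold higher with Myc on in siMondoA cells (1.09 ± 0.17, adjusted p = 0.000447). A second SPC25 probe, detected on 6 arrays, was at 0.06 ± 0.34 (adjusted p = 0.913) there. NUF2 was at 7.10, 7.23 and 7.79 in siControl and 7.07, 7.18 and 7.92 in siMondoA cells with Myc on, and at 6.97, 6.96 and 7.60 in siControl and 6.69, 6.37 and 6.21 in siMondoA cells with Myc off. Replicate 3 was the highest array in 3 of the groups and the lowest in the siMondoA Myc-off group, which lay below the other 9. NUF2 fell 1.68-fold with siMondoA when Myc was off (-0.75 ± 0.25, adjusted p = 0.0296), and its second probe, detected on 9 arrays, fell further (-1.34 ± 0.20, adjusted p = 0.000174). NDC80 itself had means of 7.49 ± 0.04 in siControl and 7.79 ± 0.31 in siMondoA cells with Myc on, against 7.44 ± 0.18 and 7.10 ± 0.14 with Myc off (SD, n = 3) and did not pass for the knockdown (0.30 ± 0.15, adjusted p = 0.185 and -0.34 ± 0.15, adjusted p = 0.0883).

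Of the centromere genes, CENPE, a kinesin that carries chromosomes to the spindle equator, was at 8.51, 8.25 and 8.63 in siControl and 8.09, 8.07 and 8.07 in siMondoA cells with Myc on, and at 8.11, 8.10 and 8.12 in siControl and 6.85, 6.87 and 7.08 in siMondoA cells with Myc off. Levels in siMondoA Myc-off cells lay about 1 log2 unit below the rest, and the siMondoA Myc-on and siControl Myc-off arrays were nearly level with each other. CENPE fell 2.26-fold with siMondoA when Myc was off (-1.18 ± 0.12 SE, n = 3 per group, adjusted p = 6.38e-06) and 1.31-fold when Myc was on (-0.39 ± 0.12, adjusted p = 0.0261), a difference of 0.79 ± 0.16 (adjusted p = 0.0119). A second CENPE probe was at -1.27 ± 0.18 (adjusted p = 0.000138) and -0.50 ± 0.18 (adjusted p = 0.0699). CENPF, a large protein of the outer kinetochore, was at 9.49, 9.34 and 9.31 in siControl and 9.28, 9.14 and 9.28 in siMondoA cells with Myc on, and at 8.67, 8.48 and 8.67 in siControl and 8.29, 8.11 and 8.19 in siMondoA cells with Myc off. These groups did not overlap and fell in that order. CENPF was 1.7-fold higher with Myc on in siControl cells (0.77 ± 0.11, adjusted p = 0.00019) and 2.05-fold in siMondoA cells (1.04 ± 0.11, adjusted p = 3.08e-05), and it fell with siMondoA when Myc was off (-0.42 ± 0.11, adjusted p = 0.00638). CENPA, the histone H3 variant that marks centromeres, was at 8.42, 8.43 and 8.17 in siControl and 8.60, 8.90 and 8.54 in siMondoA cells with Myc on, and at 7.90, 8.14 and 7.62 in siControl and 7.71, 7.53 and 7.86 in siMondoA cells with Myc off. The siMondoA Myc-on arrays were the highest and the Myc-off groups overlapped. Its brighter probe did not pass for siMondoA with Myc off (-0.18 ± 0.15, adjusted p = 0.366). In the fit over probes this probe was at an adjusted p of 0.384, and the second CENPA probe passed (-0.63 ± 0.12, adjusted p = 0.00115).

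Kinesins move along microtubules or take them apart. All 7 kinesin members fell with siMondoA when Myc was off (22.0% of all genes fell). KIF14, KIF20A and KIF2C also fell when Myc was on (12.5% of all genes fell). KIF20A, which carries the passenger complex to the spindle midzone, was at 10.23, 10.36 and 10.24 in siControl and 9.69, 9.88 and 9.57 in siMondoA cells with Myc on, and at 10.19, 9.91 and 10.23 in siControl and 8.77, 8.65 and 8.45 in siMondoA cells with Myc off. Both siMondoA groups lay below the siControl arrays, the Myc-off one by more than 1 log2 unit. It fell 2.81-fold when Myc was off (-1.49 ± 0.13 SE, n = 3 per group, adjusted p = 2.43e-06) and 1.48-fold when Myc was on (-0.56 ± 0.13, adjusted p = 0.00684), a difference of 0.93 ± 0.18 (adjusted p = 0.00897). In siControl cells KIF20A did not pass for the Myc state (0.16 ± 0.13, adjusted p = 0.369). KIF14, a kinesin of cytokinesis, was at 9.11, 9.08 and 9.17 in siControl and 8.64, 8.59 and 8.66 in siMondoA cells with Myc on, and at 8.76, 8.63 and 8.86 in siControl and 7.47, 7.39 and 7.72 in siMondoA cells with Myc off. The siMondoA Myc-on arrays lay at about the level of the siControl Myc-off arrays, and the siMondoA Myc-off arrays lay below both without overlap. KIF14 fell 2.33-fold with Myc off (-1.22 ± 0.11, adjusted p = 3.67e-06) and 1.41-fold with Myc on (-0.49 ± 0.11, adjusted p = 0.00644), and these differed by 0.73 ± 0.16 (adjusted p = 0.0138). KIF2C, which takes microtubules apart at faulty attachments, was at 9.51, 9.29 and 9.30 in siControl and 9.08, 9.09 and 8.87 in siMondoA cells with Myc on, and at 9.06, 9.00 and 9.16 in siControl and 7.76, 7.96 and 7.97 in siMondoA cells with Myc off. Again siMondoA arrays were lower in both Myc states, without overlap with siControl. Its falls were 2.26-fold with Myc off (-1.18 ± 0.11, adjusted p = 5.77e-06) and 1.28-fold with Myc on (-0.35 ± 0.11, adjusted p = 0.0385), differing by 0.82 ± 0.16 (adjusted p = 0.00867).

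KIF15, which helps to keep the spindle bipolar, was at 7.40, 6.86 and 6.86 in siControl and 6.40, 6.43 and 6.65 in siMondoA cells with Myc on, and at 6.33, 6.25 and 6.36 in siControl and 5.41, 5.89 and 5.09 in siMondoA cells with Myc off. The groups did not overlap and stood in that order. KIF15 was 1.66-fold higher with Myc on in siControl cells (0.73 ± 0.19 SE, n = 3 per group, adjusted p = 0.0125), and it was lower with siMondoA when Myc was off (-0.85 ± 0.19, adjusted p = 0.00319), where 1 of the 3 siMondoA arrays did not detect it and the size ran from -1.07 to -0.30 over the alternatives. KIF11, the motor that pushes spindle poles apart, was at 8.96, 8.74 and 8.73 in siControl and 8.63, 8.71 and 9.24 in siMondoA cells with Myc on, and at 8.24, 8.07 and 8.51 in siControl and 7.78, 8.02 and 7.54 in siMondoA cells with Myc off. Myc-on arrays lay above Myc-off arrays under either siRNA, and siMondoA Myc-on replicate 3 was the highest of all. KIF11 fell 1.41-fold with siMondoA when Myc was off (-0.49 ± 0.18, adjusted p = 0.0408), a call lost in 8 of 21 alternatives, while in the fit over probes its brighter probe was at -0.49 ± 0.18 (adjusted p = 0.0457) and the other at -0.41 ± 0.16 (adjusted p = 0.062). KIF23, a subunit of the centralspindlin complex, was at 8.49, 8.78 and 8.71 in siControl and 8.57, 8.70 and 8.71 in siMondoA cells with Myc on, and at 8.71, 8.49 and 8.68 in siControl and 7.88, 8.15 and 7.42 in siMondoA cells with Myc off. Lowest were the siMondoA Myc-off arrays, and the remaining groups overlapped. KIF23 fell 1.75-fold with siMondoA when Myc was off (-0.81 ± 0.16, adjusted p = 0.00145) and was at 0.00 ± 0.16 (adjusted p = 0.992) when Myc was on. The second KIF23 probe, detected on 7 arrays, fell in both Myc states (-0.70 ± 0.15, adjusted p = 0.00597 with Myc on and -0.78 ± 0.15, adjusted p = 0.00131 with Myc off) and was at 0.07 ± 0.21 (adjusted p = 0.871) for their difference. The brighter probe did not pass for that difference in the fit over probes either (0.81 ± 0.23, adjusted p = 0.0569), and its call in the fit over genes (0.80 ± 0.23, adjusted p = 0.0487) was lost in 15 of 20 alternatives. KIF4A, a chromosome-bound kinesin, had means of 8.50 ± 0.18 in siControl and 8.57 ± 0.04 in siMondoA cells with Myc on, against 8.72 ± 0.16 and 7.94 ± 0.12 with Myc off (SD, n = 3). It fell with siMondoA when Myc was off (-0.78 ± 0.12, adjusted p = 0.000272) and was at 0.07 ± 0.12 (adjusted p = 0.728) when Myc was on, a difference of 0.85 ± 0.17 (adjusted p = 0.0117), and was the 1 member with its highest mean in siControl Myc-off cells.

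The spindle microtubule proteins NUSAP1, TPX2, PRC1, DLGAP5 and HMMR bind or bundle microtubules. All 5 fell with siMondoA when Myc was off (22.0% of all genes fell). When Myc was on 0 passed (12.4% of all genes rose and 12.5% fell). DLGAP5, which stabilizes the fibres that hold kinetochores, was at 8.91, 9.14 and 9.24 in siControl and 8.80, 8.75 and 8.93 in siMondoA cells with Myc on, and at 9.08, 8.96 and 9.11 in siControl and 7.84, 7.81 and 7.85 in siMondoA cells with Myc off. The 3 siMondoA Myc-off arrays lay close together and below all the rest. The siControl Myc-on arrays overlapped both remaining groups, while the siMondoA Myc-on arrays lay below the siControl Myc-off arrays. It fell 2.33-fold with siMondoA when Myc was off (-1.22 ± 0.11 SE, n = 3 per group, adjusted p = 3.67e-06) against -0.27 ± 0.11 (adjusted p = 0.0959) when Myc was on, a difference of 0.95 ± 0.16 (adjusted p = 0.00335). In siControl cells DLGAP5 did not pass for the Myc state (0.05 ± 0.11, adjusted p = 0.791). HMMR, a spindle protein that is also known as a hyaluronan receptor, was at 8.86, 9.11 and 9.23 in siControl and 8.92, 8.86 and 9.06 in siMondoA cells with Myc on, and at 8.78, 8.60 and 8.70 in siControl and 7.67, 7.37 and 7.96 in siMondoA cells with Myc off. The siMondoA Myc-off arrays were lowest, and the Myc-on groups overlapped. HMMR was 2.43-fold higher with Myc on in siMondoA cells (1.28 ± 0.15, adjusted p = 7.12e-05) and fell 2.04-fold with siMondoA when Myc was off (-1.03 ± 0.15, adjusted p = 0.000144). The difference between its knockdown changes passed on either probe (0.91 ± 0.21, adjusted p = 0.0208 and, for the second, 0.91 ± 0.24, adjusted p = 0.0426). TPX2, which activates Aurora A on the spindle, was at 10.00, 10.03 and 10.01 in siControl and 9.98, 9.89 and 9.74 in siMondoA cells with Myc on, and at 9.73, 10.03 and 9.77 in siControl and 8.94, 9.18 and 8.71 in siMondoA cells with Myc off. In siMondoA Myc-off cells every array was below the others. TPX2 fell 1.87-fold with Myc off (-0.90 ± 0.13, adjusted p = 0.000154), and the difference from its change with Myc on was 0.76 ± 0.19 (adjusted p = 0.0268), lost in 8 of 20 alternatives. PRC1, the crosslinker of the spindle midzone, was at 10.70, 10.90 and 10.91 in siControl and 10.63, 10.87 and 10.81 in siMondoA cells with Myc on, and at 10.47, 10.65 and 10.47 in siControl and 9.62, 9.74 and 9.71 in siMondoA cells with Myc off. Its siMondoA Myc-off arrays lay below the other 9, and the Myc-on groups overlapped. It fell 1.79-fold with siMondoA when Myc was off (-0.84 ± 0.11, adjusted p = 6.4e-05), and the difference from Myc on was 0.77 ± 0.15 (adjusted p = 0.0106). NUSAP1, a microtubule bundler near chromosomes, was at 10.18, 10.16 and 10.11 in siControl and 9.97, 9.90 and 9.80 in siMondoA cells with Myc on, and at 9.69, 9.72 and 9.67 in siControl and 9.27, 8.76 and 9.12 in siMondoA cells with Myc off. Its groups did not overlap and stood in that order. It was 1.37-fold higher with Myc on in siControl cells (0.46 ± 0.13, adjusted p = 0.0152), and siMondoA lowered it 1.56-fold when Myc was off (-0.64 ± 0.13, adjusted p = 0.00119).

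At the exit from mitosis, CDC20 activates the APC/C, the conjugating enzyme UBE2C works with it, securin (PTTG1) is destroyed and separase (ESPL1) cuts cohesin. Of these 4 genes 2 fell with siMondoA when Myc was off (22.0% of all genes fell) and 1 when Myc was on (12.5% fell). ESPL1 was at 7.85, 7.63 and 7.37 in siControl and 6.83, 7.32 and 6.92 in siMondoA cells with Myc on, and at 7.18, 6.85 and 6.96 in siControl and 6.21, 6.17 and 5.63 in siMondoA cells with Myc off. Its siMondoA arrays lay below the siControl arrays in both Myc states. Separase transcript fell 1.99-fold with siMondoA when Myc was off (-0.99 ± 0.19 SE, n = 3 per group, adjusted p = 0.00094) and 1.51-fold when Myc was on (-0.59 ± 0.19, adjusted p = 0.0353), and the difference did not pass (0.40 ± 0.27, adjusted p = 0.393). PTTG1 was at 12.45, 12.35 and 12.25 in siControl and 12.20, 12.35 and 12.11 in siMondoA cells with Myc on, and at 11.84, 11.87 and 11.78 in siControl and 11.84, 11.51 and 11.94 in siMondoA cells with Myc off. Its Myc-on arrays lay above the Myc-off arrays and the siRNA groups overlapped within each Myc state. PTTG1 was 1.43-fold higher with Myc on in siControl cells (0.52 ± 0.12, adjusted p = 0.0076) and 1.37-fold in siMondoA cells (0.46 ± 0.12, adjusted p = 0.015), with knockdown changes of -0.13 ± 0.12 (adjusted p = 0.502) and -0.07 ± 0.12 (adjusted p = 0.684). UBE2C was at 11.12, 11.13 and 10.97 in siControl and 11.19, 11.50 and 11.28 in siMondoA cells with Myc on, and at 10.46, 10.61 and 10.28 in siControl and 10.21, 10.40 and 10.38 in siMondoA cells with Myc off. The Myc-off groups overlapped, below all Myc-on arrays. UBE2C was 1.54-fold higher with Myc on in siControl cells (0.63 ± 0.12, adjusted p = 0.00201) and 1.99-fold in siMondoA cells (0.99 ± 0.12, adjusted p = 9.19e-05), where a second probe did not pass (0.46 ± 0.23, adjusted p = 0.162). CDC20 had means of 11.91 ± 0.15 in siControl and 11.90 ± 0.17 in siMondoA cells with Myc on, against 11.59 ± 0.03 and 11.03 ± 0.05 with Myc off (SD, n = 3). It fell with siMondoA when Myc was off (-0.56 ± 0.12, adjusted p = 0.00168) and was at -0.01 ± 0.12 (adjusted p = 0.969) when Myc was on, and the difference did not pass (0.55 ± 0.16, adjusted p = 0.0545).

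**Figure D4:**
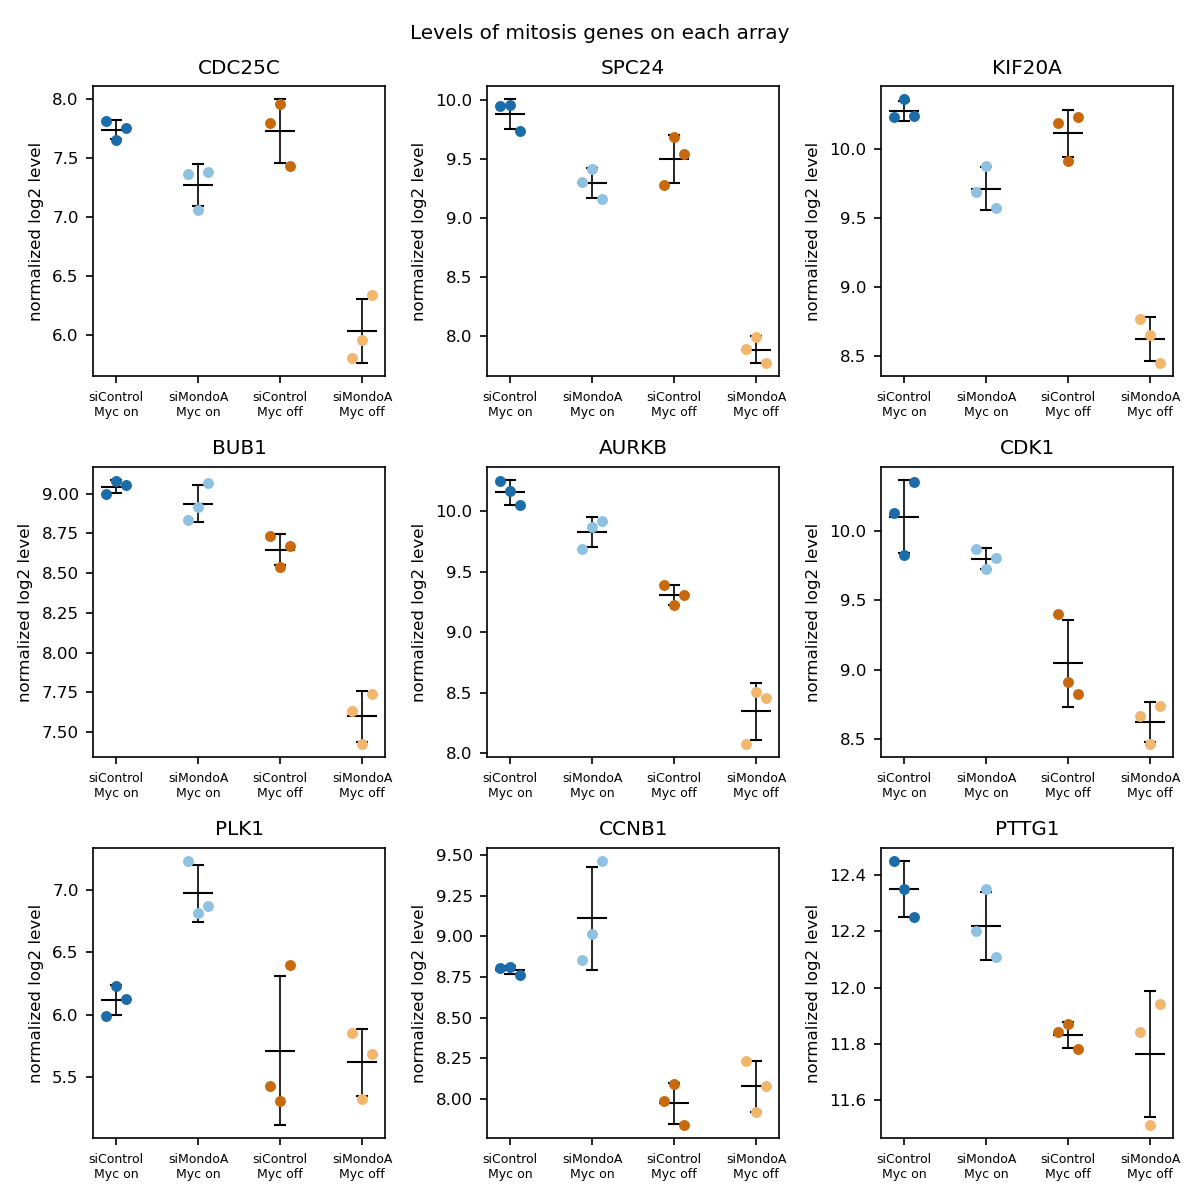
Normalized log2 levels of 9 of the genes on each array (points), with the group mean and SD (black bars, n = 3), on axes that do not start at 0. CDC25C, SPC24, KIF20A and BUB1 show a drop in the siMondoA Myc-off group, CDK1, CCNB1 and PTTG1 differ mainly between Myc states, and PLK1 is highest in the siMondoA Myc-on group at 6.82 to 7.23.

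For cytokinesis, ANLN, the scaffold of the contractile ring, was at 9.45, 9.24 and 9.33 in siControl and 9.18, 9.04 and 9.63 in siMondoA cells with Myc on, and at 9.11, 9.03 and 9.03 in siControl and 8.21, 8.12 and 8.14 in siMondoA cells with Myc off. The 3 siMondoA Myc-off arrays lay close together, below all other arrays. ANLN fell 1.87-fold with siMondoA when Myc was off (-0.90 ± 0.14 SE, n = 3 per group, adjusted p = 0.000199) against -0.06 ± 0.14 (adjusted p = 0.797) when Myc was on, a difference of 0.84 ± 0.19 (adjusted p = 0.0194). ECT2, the exchange factor that activates RhoA at the cell equator, was at 9.05, 9.09 and 9.10 in siControl and 8.86, 9.04 and 9.12 in siMondoA cells with Myc on, and at 8.69, 8.54 and 8.34 in siControl and 8.72, 7.93 and 8.74 in siMondoA cells with Myc off. Its siMondoA Myc-off replicate 2 lay well below the other arrays of that group, and the Myc-off groups overlapped. ECT2 was 1.47-fold higher with Myc on in siControl cells (0.56 ± 0.19, adjusted p = 0.0397) and 1.46-fold in siMondoA cells (0.54 ± 0.19, adjusted p = 0.0452), calls lost in 8 and in 15 of 21 alternatives. Its knockdown changes were -0.07 ± 0.19 (adjusted p = 0.821) and -0.06 ± 0.19 (adjusted p = 0.829).

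Of the genes of chromosome structure, TOP2A, the topoisomerase that untangles sister chromatids, was at 10.83, 11.12 and 11.11 in siControl and 10.37, 10.29 and 10.57 in siMondoA cells with Myc on, and at 10.84, 10.43 and 10.87 in siControl and 9.46, 9.19 and 9.26 in siMondoA cells with Myc off. The siMondoA arrays lay below the siControl arrays in both Myc states, by the wider gap with Myc off. TOP2A fell 2.66-fold with siMondoA when Myc was off (-1.41 ± 0.14 SE, n = 3 per group, adjusted p = 9.87e-06) and 1.52-fold when Myc was on (-0.61 ± 0.14, adjusted p = 0.00921), a difference of 0.80 ± 0.21 (adjusted p = 0.0315) that was lost in 7 of 20 alternatives. MKI67, the proliferation marker Ki-67 that coats mitotic chromosomes, was at 6.95, 6.90 and 6.42 in siControl and 6.54, 6.19 and 6.22 in siMondoA cells with Myc on, and at 6.53, 6.66 and 6.50 in siControl and 5.19, 5.09 and 5.56 in siMondoA cells with Myc off. Again siMondoA Myc-off arrays were lowest, and 2 of these 3 did not detect the probe. MKI67 passed as lower with siMondoA when Myc was off (-1.28 ± 0.17, adjusted p = 5.55e-05), a size that ran from -1.44 to -0.47 over the alternatives and has no firm value with most of the low arrays not above background. With Myc on it was at -0.44 ± 0.17 (adjusted p = 0.0705). The difference between these (0.84 ± 0.23, adjusted p = 0.0435) rests on the same arrays and was lost in 14 of 19 alternatives, the deposited log2 values among them, where it was 0.27.

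Other detected probes were available for 20 of the 45 genes, 22 probes in all. In the fit over 16385 probes, 20 of the 22 had the sign of the brightest probe for siMondoA when Myc was off and 17 the same call. With Myc on these counts were 18 and 19, for the Myc state in siControl cells 19 and 20, in siMondoA cells 22 and 15, and for the difference 20 and 17. No other probe was called in the direction opposite to a call of the brightest probe in these 5 comparisons.

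Other genes of mitosis were counted over a list of 124, of which 113 were tested. With siMondoA when Myc was off 40 fell (35.4%, against 22.0% of all genes), 18 rose (15.9%, against 21.8%) and 55 did not pass, with a median of -0.15, against -0.62 for the 45 genes and 0.03 for all genes. When Myc was on, 10 fell (8.85%) and 14 rose (12.4%), at or below the 12.5% and 12.4% of all genes (median 0.03). With Myc on, 46 were higher (40.7%, against 14.6% of all genes) and 4 lower in siControl cells (median 0.29), and 64 were higher (56.6%, against 14.9%) and 1 lower in siMondoA cells (median 0.56). For the interaction 20 passed above zero (17.7%, against 5.15%) and 2 below. WEE1, the kinase that inhibits CDK1, fell with siMondoA by the most in both Myc states (-1.42 ± 0.13, adjusted p = 4.89e-06 with Myc off and -1.09 ± 0.13, adjusted p = 0.000136 with Myc on). With Myc off the minus-end kinesin KIFC1 (-1.25 ± 0.11, adjusted p = 2.45e-06) and TROAP (-1.40 ± 0.15, adjusted p = 1.56e-05) also fell, while the APC/C subunit ANAPC10 (0.85 ± 0.15, adjusted p = 0.000486), the centromere protein CENPP (0.85 ± 0.17, adjusted p = 0.00124) and LIN54, the DNA-binding subunit of the complex that binds CHR elements (0.82 ± 0.13, adjusted p = 0.00033), rose. With Myc on, KNTC1 (-0.93 ± 0.12, adjusted p = 0.000215) and the cohesin gene SMC1A (-0.90 ± 0.22, adjusted p = 0.00987) fell and the kinetochore genes SKA3 (0.80 ± 0.18, adjusted p = 0.00607) and SKA2 (0.61 ± 0.16, adjusted p = 0.0167) rose. LIN37 also rose there (0.65 ± 0.22, adjusted p = 0.0495), at an adjusted p just under the threshold.

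The smaller lists of these other genes are read against the 22.0% of all genes that fell and the 21.8% that rose with siMondoA when Myc was off. Of the 15 APC/C subunits and regulators tested, 4 fell (26.7%) and 6 rose (40.0%) there, with a median of 0.12. Of 21 centrosome, spindle pole and cytokinesis genes 11 fell (52.4%) and 0 rose (median -0.34), and 16 were higher with Myc on in siMondoA cells (76.2%, against 14.9% of all genes). Of the 8 condensin genes, which compact chromosomes, 3 fell (37.5%) and 0 rose with siMondoA when Myc was off. In siMondoA cells 6 of them were higher with Myc on (75%, against 14.9% of all genes). Of 34 other centromere and kinetochore genes 10 fell (29.4%) and 6 rose (17.6%) with siMondoA when Myc was off (median -0.14), shares near those of all genes, and 18 were higher with Myc on in siControl cells (52.9%, against 14.6%). Of 12 cohesin genes and regulators 4 fell (33.3%) and 0 rose with siMondoA when Myc was off. Of 18 other genes of mitotic entry 5 fell and 5 rose there (27.8% each way, median -0.12). Of 5 other mitotic kinesins 3 fell (60%) and 1 rose (20%).

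As a neighbouring part of the cell cycle, 48 of 50 listed DNA replication genes were tested. With siMondoA when Myc was off 22 fell (45.8%, against 22.0% of all genes), 7 rose (14.6%, against 21.8%) and 19 did not pass (median -0.22). When Myc was on 5 fell and 5 rose, 10.4% each way and below the 12.5% and 12.4% of all genes (median -0.02). With Myc on, 33 were higher in siControl cells (68.8%, against 14.6%, median 0.55) and 34 in siMondoA cells (70.8%, against 14.9%, median 0.66), with 0 lower in each. The interaction passed for 6 above zero (12.5%, against 5.15%) and 1 below (median 0.14), against 19 and 0 for the mitosis genes (median 0.64). The lists were not tested against each other.

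**Figure D5:**
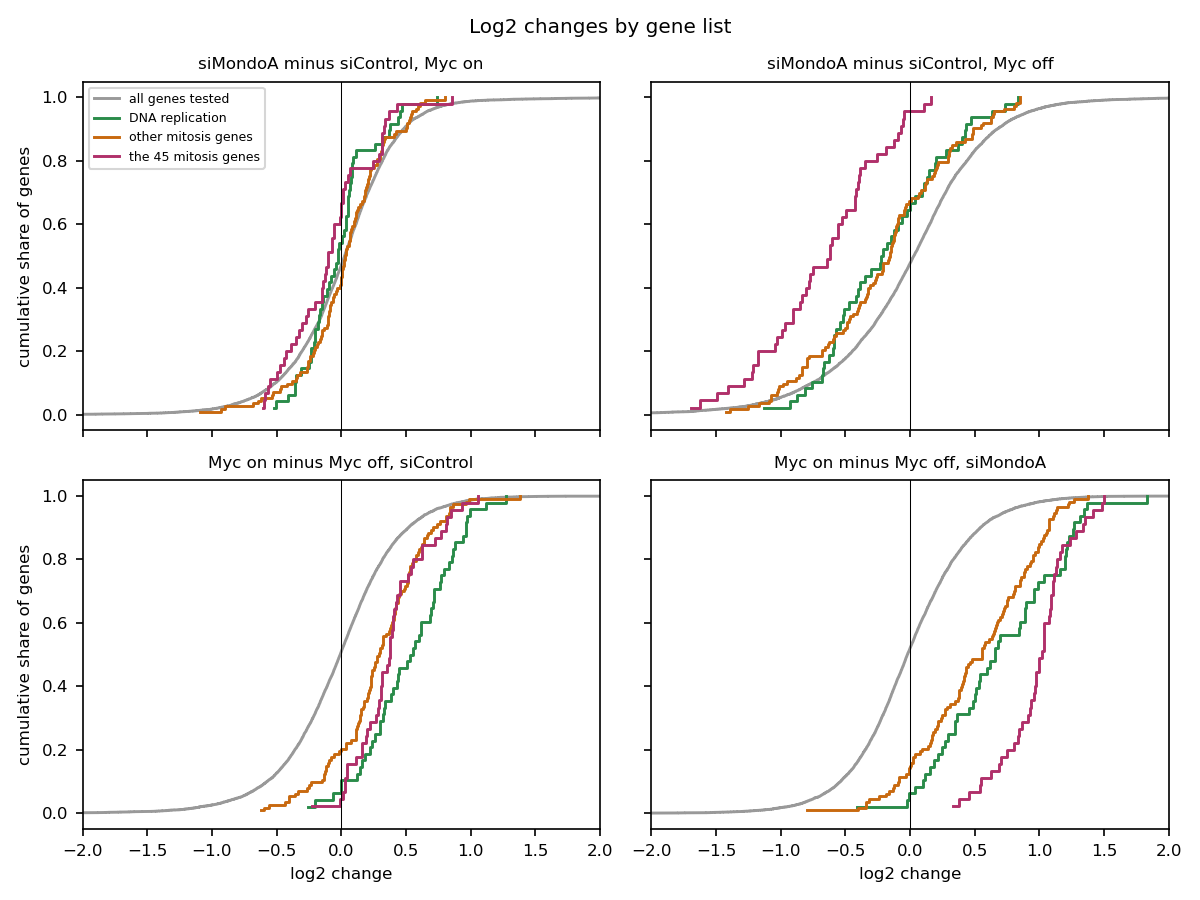
Cumulative share of genes (y axis) by log2 change (x axis) in the 4 comparisons, for all 12178 genes (grey), 48 DNA replication genes (green), 113 other mitosis genes (orange) and the 45 mitosis genes (pink), with changes beyond 2 in size not drawn. With siMondoA when Myc was off the 45 genes have a median of -0.62 against -0.22 for replication, and in siControl cells their median with Myc on is 0.37 against 0.55 for replication.

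The promoter matches were set beside the calls. A CHR form was in 14 of the 18 promoters of members that passed the interaction and in 19 of the 20 of members that did not. Of the members that fell with siMondoA when Myc was off, 25 of 30 held a CHR form and 24 of 30 a CCAAT box, and of those that did not pass, 8 of 8 and 7 of 8 did. SPC24, whose window shown above has neither TTTGAA nor TTTAAA, and CDC25C, whose window has TTTGAA, were the members that fell furthest there.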

How the data were processed

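RNA of 12 Tet21N samples was measured on Illumina bead arrays. The deposited table held probe intensities on a linear scale, without background subtraction or normalization as judged from the values. It also held the authors' detection score per probe and array, read as 1 minus the detection p-value. The authors' second table held log2 values, which equalled log2 quantile-normalized intensities. The tool lumi is named per the submitters' processing notes, and its version and role are not given in the sources used here. Detection scores, with control probes not used here, served to correct the background (neqc, offset 16), followed by quantile normalization and log2, in limma 3.58.1 (R 4.3.3). Of 47323 probes, 47313 had a value on every array. Those with 1 gene symbol from GEO's platform annotation (30108 of 47313, with 8 naming several and 17197 none) were kept if detected, and the brightest stood for its gene. 1 model was fitted to the 4 group means, and the 4 pairwise comparisons and their interaction were tested with limma, with Benjamini-Hochberg adjustment over 12178 genes at 0.05. For the values of other probes the same model was fitted to 16385 probes, with adjustment over those probes. Values on every array were given for the called member of each role with the largest change in each pairwise comparison, for the 4 highest and 4 lowest called interactions and for members whose other probes differed in call or sign. CCNB1 and MKI67 fall outside this rule and their array values were added after they were seen. Other genes of the pathway were named by up to 3 of the largest changes in each direction, for siMondoA against siControl in each Myc state. Such names are not given for the Myc state or the interaction. The 45 members, the other lists, the motifs and the tests were chosen with earlier results of these data known. The number of arrays limits the precision, with a median standard error of 0.15.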

Additional observations from a re-analysis of the deposited data

Results flagged for a closer look

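For 19 members the change with siMondoA differed between the Myc states by limma's test of the difference (adjusted p between 0.00335 and 0.0497). Each value is the log2 change with Myc on minus the log2 change with Myc off, and all 19 were above zero. Among the genes of mitotic entry these were CDC25C (1.22) and CCNA2 (0.92). In the passenger complex they were CDCA8 (0.82) and AURKB (0.64), and among checkpoint genes BUB1 (0.94). The kinesins on this list were KIF20A (0.93), KIF4A (0.85), KIF2C (0.82), KIF23 (0.80) and KIF14 (0.73). At the kinetochore they were SPC24 (1.03) and CENPE (0.79). The spindle microtubule proteins were DLGAP5 (0.95), HMMR (0.91), PRC1 (0.77) and TPX2 (0.76). The remaining genes were MKI67 (0.84), ANLN (0.84) and TOP2A (0.80). Some of these calls were weak. Over the alternatives the call was lost in 15 of 20 for KIF23, 14 of 20 for AURKB, 14 of 19 for MKI67, 8 of 20 for TPX2 and 7 of 20 for TOP2A, and in 1 of 20 for ANLN, CENPE and HMMR. In the fit over probes neither KIF23 probe passed for this difference (adjusted p = 0.0569 for the brighter and 0.871 for the second). The MKI67 value has no firm size, since its probe was detected on 1 of the 3 siMondoA Myc-off arrays, and it was 0.27 with the deposited log2 values.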

How the results depend on the processing

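Of the 33 members that fell with siMondoA when Myc was off, 26 passed under every alternative, as did 36 of the 43 that were higher with Myc on in siMondoA cells and 11 of the 19 interactions. With the deposited log2 values, siMondoA with Myc on gave 5 members higher and 11 lower, 16 in all, and 778 of all genes were lower for the interaction. Median scaling gave 8 higher and 0 lower there, with a member median of 0.15 in place of -0.10, and 2599 and 686 of all genes. Under it 1684 genes rose with siMondoA when Myc was off, 774 genes and 8 members were higher with Myc on in siControl cells, 749 genes were lower with Myc on in siMondoA cells, and the interaction called 29 members, 1370 genes above and 86 below zero. Its share of higher genes among all calls was 37.2% for siMondoA with Myc off, against 49.9%, and 94.1% for the interaction, against 59.2%. In the fit of only the groups compared, 1 member rose with siMondoA when Myc was on. That fit was not run for the interaction. The cause of these differences was not tested. Leaving out 1 array at a time gave, for siMondoA with Myc on, 0 to 3 members higher, 4 to 9 lower and 5 to 12 called, and for the Myc state in siControl cells 12 to 22. The fewest calls came without siControl Myc-on replicate 1, and for siMondoA with Myc on also without siMondoA Myc-on replicate 1. For the interaction 411 to 663 genes passed above zero and 257 to 479 below. Arrays with the same replicate number did not deviate together (r = -0.05 to 0.08), and a replicate block gave 3 higher and 6 lower for siMondoA with Myc on, 33 lower with Myc off, 20 and 42 for the Myc state and 16 interactions.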
